A study of Drosophila melanogaster with 24 samples.

Results

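Transcript levels of the cytochrome P450 genes were followed in whole adult fruit flies that over-expressed Hr96, which encodes the nuclear receptor DHR96, or carried an RNA interference transgene against it. The genes were taken by name: every symbol of the form Cyp followed by a digit in the array's annotation, named by a probe set of 1 gene, without the Cyp4p cluster (Cyp4p1, Cyp4p2, Cyp4p3) and without Cyp4d21 and Cyp4g1. The pattern gave 83 genes and 78 after the 5 exclusions, of 11982 genes named by such probe sets on the array. Of the 78, Cyp1 and Cyp40 are cyclophilins, which fold proteins and are not P450s, so the counts below are over the other 76, all of them P450s. P450 genes that the annotation names by a symbol of another form were not taken in, so the set does not cover the whole family. A gene with several probe sets was represented by the brightest, and a probe set that names both Cyp12d1-d and Cyp12d1-p was not used for either.

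The series holds 24 Affymetrix arrays, 3 for each sex of 4 genotypes, all carrying w and collected as adults of 0 to 3 days. Over-expression flies (w;Act5C-GAL4/UAS:OE_Dhr96OE_35) were set against their control with the driver alone (w;Act5C-GAL4/+). Labelled knockdown flies (w;arm-GAL4/+;UAS:RNAi_Dhr96Hp_3/+) were set against theirs (w;arm-GAL4/+). Each transgene was represented by 1 line. An effect of the transgene therefore cannot be told apart from one of the genetic background that came with its line. Act5C and arm are actin and armadillo promoters, both used to drive GAL4 broadly in the body. The 3 arrays of a group came from flies reared on 3 separately made batches of the same diet, and the same 3 batches served all groups.

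P450s are heme enzymes that use electrons passed on by a reductase, cytochrome b5 or, in mitochondria, a ferredoxin to insert oxygen into small molecules. Insects sort them into 4 clans. Clan 3, with the large Cyp6 and Cyp9 families, and clan 4 hold many enzymes that act on insecticides, plant toxins and fatty acids, while the mitochondrial clan and clan 2 include enzymes of the steroid moulting hormone and of development. Here 37 members belonged to clan 3, 27 to clan 4, 8 to the mitochondrial clan and 4 to clan 2. DHR96 is known in flies as a receptor that helps set the response to toxins and the handling of lipids, so the series offers a comparison of P450 levels with more of the receptor and with an attempted reduction.

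Values are log2 of the deposited intensities, and differences are between group means on that scale, with the standard error (SE) of a limma fit to all 24 arrays. A call is an adjusted p under 0.05, two-sided and adjusted over all 18769 probe sets tested. Hr96 itself was 1.40 ± 0.31 (SE) higher in over-expression females than in Act5C-GAL4 control females and 2.09 ± 0.31 higher in over-expression males than in Act5C-GAL4 control males, both called. In the labelled knockdown flies it differed from the arm-GAL4 control by 0.01 ± 0.22 in the mean of both sexes (adjusted p 0.999), so these flies are named by their label only. Whole-fly RNA mixes tissues, and fewer cells of a type cannot be told apart from less RNA per cell. The largest deviation on tissue markers was that of replicate 2 of the over-expression females. It lay at -2.13 from its group mean at the median of 12 ovary markers, and at 0.11 at the median of the 76 P450s. Replicate 2 of the arm-GAL4 control females lay at -0.84 on the same markers, with the P450s -0.15 from theirs. Replicate 2 of the Act5C-GAL4 control females lay at -0.43 and that of the labelled knockdown females at 0.21. Other tissues varied between arrays too, with medians of -0.48 to 0.51 for gut markers, -0.52 to 0.55 for fat body and -0.27 to 0.38 for Malpighian tubule.

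**Figure D1:**
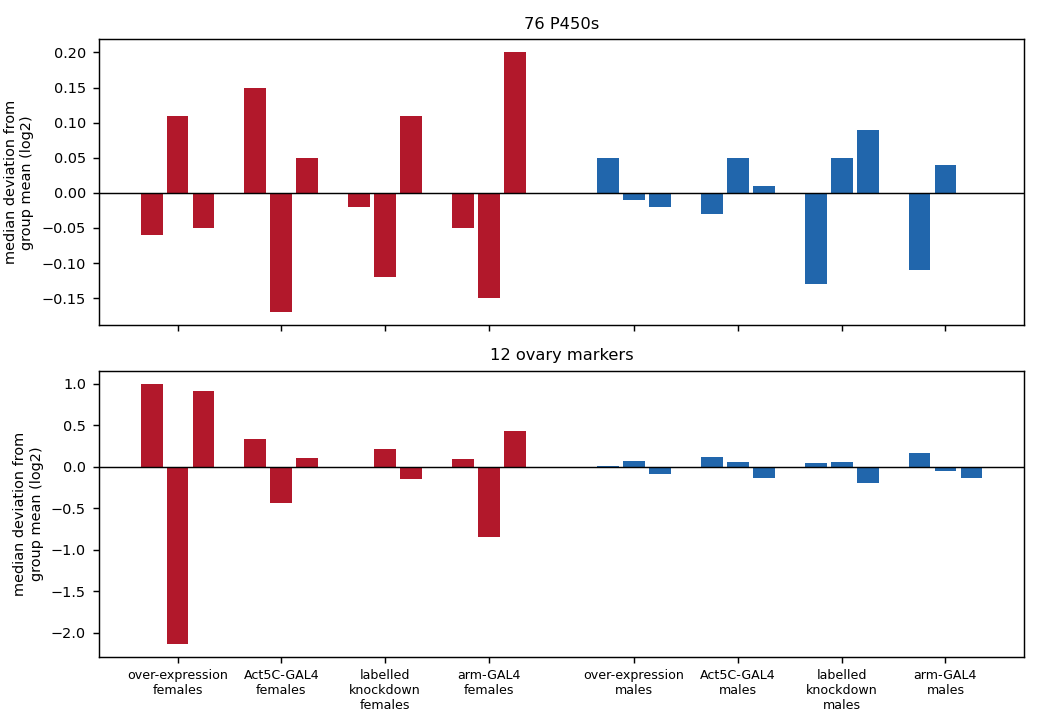
Median deviation of each array from its group's mean, in log2 units, for the 76 P450s (upper panel) and 12 ovary markers (lower panel); bars within a group are replicates 1, 2 and 3, red for females and blue for males. The P450 medians stayed between -0.17 and 0.20, while replicate 2 of the over-expression females reached -2.13 on the ovary markers.

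Most members were measured above the low end of the scale. Of the 76, 69 had every group mean above the lowest lower quartile of any array (4.38 on the log2 scale). Another 4 (Cyp303a1, Cyp310a1, Cyp313a2 and Cyp313a3) fell below it in some groups and 3 (Cyp311a1, Cyp313a5 and Cyp316a1) in all. There a probe set may carry mostly background. P450s varied more between replicates than the array as a whole: their median SD within groups was 0.24, against 0.19 over all probe sets, and 34 of 76 lay above the upper quartile of all probe sets (0.25). The most variable was Cyp309a1 (SD 0.72), a gene named among those that respond to foreign compounds, followed by Cyp313a1 (0.53), Cyp28d1 (0.52) and Cyp6a2 (0.51).

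**Figure D2:**
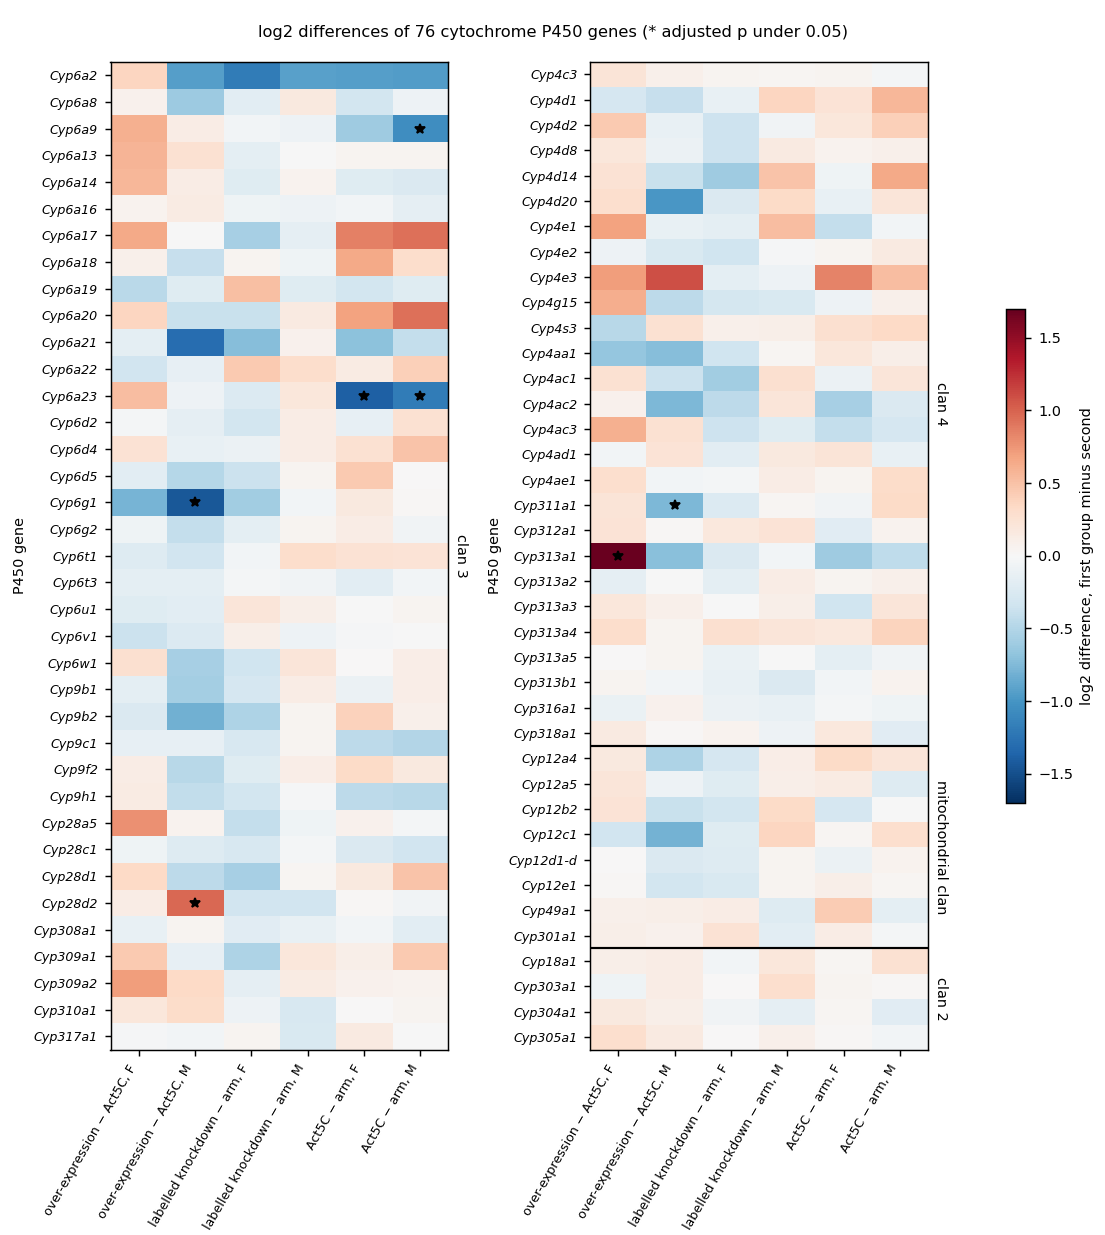
The log2 difference of each of the 76 P450s (rows, by clan) in 3 comparisons and 2 sexes (columns; F females, M males; red higher and blue lower in the first-named group), with a star where the adjusted p was under 0.05. Most cells are pale, and the darkest belong to few genes, among them Cyp313a1, Cyp6g1, Cyp6a23, Cyp6a21 and Cyp6a2.

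Over-expression flies differed from their control in few P450s. In the mean of both sexes 4 of 76 were called, where 1.88% of all probe sets were (0.932% higher and 0.948% lower): Cyp4e3 and Cyp28d2 rose, and Cyp6g1 and Cyp4aa1 fell. At an unadjusted p under 0.05 there were 19 (8 higher and 11 lower), 25.0% of the members against 14.3% of all probe sets. The median difference over the members was -0.03, against 0.00 over all probe sets, and 34 members were higher and 42 lower.

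Cyp6g1, the P450 whose high expression gives flies resistance to DDT and neonicotinoids, showed the largest fall. It measured 8.96, 10.02 and 8.97 in over-expression females, against 10.43, 9.88 and 10.02 in Act5C-GAL4 control females. Over-expression males gave 9.08, 9.71 and 9.29, against 10.46, 10.85 and 11.09 in control males. The male groups did not overlap. Replicate 2 of the over-expression females, the array of that group with low ovary markers, lay among the control females. The difference was -1.12 ± 0.16 in the mean of both sexes (2.17-fold lower, lower in 5 of 6 same-batch pairs, adjusted p 0.000283) and -1.44 ± 0.23 in males (2.71-fold lower, adjusted p 0.00105). Both calls held with each array left out in turn. In females it was -0.79 ± 0.23 (adjusted p 0.105) with all arrays and -1.15 (adjusted p 0.00565) without replicate 2 of the over-expression females. A low female level was not particular to over-expression. Labelled knockdown females had a Cyp6g1 mean of 9.35, against 9.32 in over-expression females and 9.95 in arm-GAL4 control females. Their difference from the arm-GAL4 control was -0.59 ± 0.23, with no overlap and not called (adjusted p 0.983).

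Cyp4aa1, a clan 4 member, was lower in both sexes. It measured 6.36, 6.06 and 6.38 in over-expression females against 7.24, 6.47 and 7.07 in control females. The values were 6.01, 6.03 and 5.89 in over-expression males against 6.47, 6.79 and 6.87 in control males. Neither sex overlapped with its control. The difference was -0.70 ± 0.13 in the mean of both sexes (1.62-fold lower, lower in 6 of 6 pairs, adjusted p 0.0055), and the call held with each array left out in turn. By sex it was -0.66 ± 0.19 in females (adjusted p 0.108) and -0.73 ± 0.19 in males (adjusted p 0.0577). With the diet batch in the model these were called as well, at adjusted p 0.0342 in females and 0.0165 in males. Deviations of same-batch arrays of the 2 female groups were only weakly correlated, however (-0.03, -0.07 and 0.07). The female difference was also called without replicate 2 of the control females (-0.89, adjusted p 0.0381).

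Cyp4e3, a clan 4 gene that has been linked to tolerance of the insecticide permethrin, was the member with the largest rise in the mean of both sexes. It measured 8.04, 7.74 and 8.51 in over-expression females against 7.46, 7.18 and 7.51 in control females. Males had 7.68, 9.29 and 8.83 with over-expression against 8.12, 7.38 and 7.04 in the control. The female groups did not overlap, and the male groups overlapped through replicate 1 of each. The difference was 0.90 ± 0.22 (1.86-fold higher, higher in 5 of 6 pairs, adjusted p 0.0359). The call ended with any of 8 of the 12 arrays left out (adjusted p 0.0612 to 0.128 there), and was kept only without replicate 2 of the over-expression females or replicate 1 of the over-expression males, control females or control males. In males alone the difference was 1.09 ± 0.31 (adjusted p 0.108), called at 1.55 (adjusted p 0.00631) without replicate 1 of the over-expression males and at 1.39 (0.0392) without replicate 1 of the control males.

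Cyp28d2 belongs to a family whose members in cactus-feeding Drosophila respond to plant alkaloids. It measured 6.79, 6.73 and 6.71 in over-expression males against 5.97, 5.92 and 5.40 in control males. Females had 5.11, 5.62 and 5.15 with over-expression against 5.42, 4.78 and 5.29 in the control. All 3 over-expression males lay above every other male array of the series, and the female groups overlapped. The rise was 0.98 ± 0.20 in males (1.97-fold, adjusted p 0.0118), the difference in females was 0.13 ± 0.20 (adjusted p 0.798), and the test of female minus male effect gave -0.85 ± 0.28 (adjusted p 0.237). The male call ended without replicate 1 of the over-expression males (adjusted p 0.0506) or replicate 3 of the control males (0.131). The rise in the mean of both sexes, 0.55 ± 0.14 (adjusted p 0.0432), lost its call with any of 8 of the 12 arrays left out (0.0527 to 0.149) and was kept only without replicate 1 of the control females or males, or replicates 1 or 3 of the over-expression females.

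**Figure D3:**
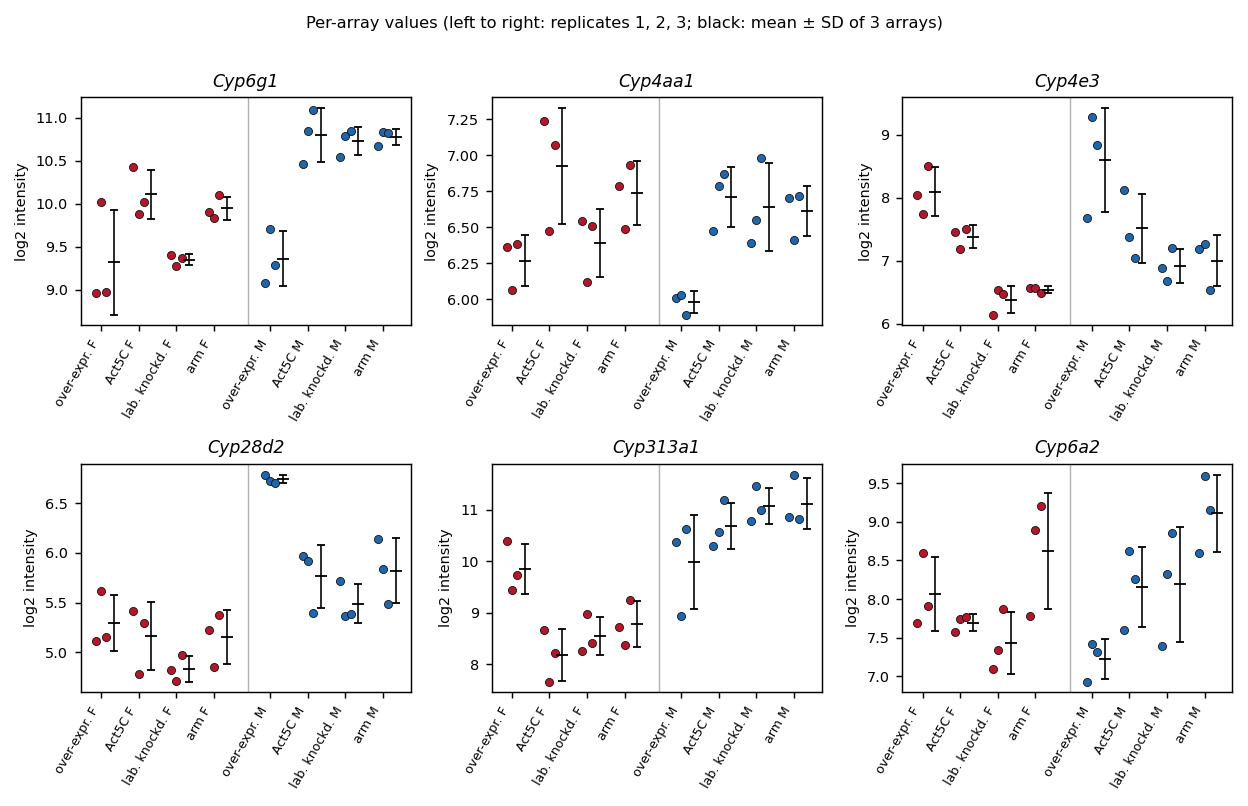
Log2 intensity of 6 P450s on each array (points; red females, blue males), by group with replicates 1, 2 and 3 from left to right, and the mean ± SD of 3 arrays in black beside them. Cyp28d2 stands high in over-expression males, and Cyp313a1 in over-expression females lies above every other female array. Cyp6g1 and Cyp4aa1 are low in over-expression flies against their control. Labelled knockdown females lie near over-expression females for both, at means of 9.35 against 9.32 (Cyp6g1) and 6.39 against 6.27 (Cyp4aa1).

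By sex, over-expression called 1 of 76 members in females (0.874% of all probe sets) and 3 of 76 in males, 1 higher and 2 lower (1.17% of all probe sets, 0.437% higher and 0.73% lower). With the diet batch in the model the female count was 2, where 2.04% of all probe sets were called, with Cyp4aa1 the added one. The female call was Cyp313a1, a clan 4 gene. It measured 10.39, 9.44 and 9.74 in over-expression females against 8.66, 7.66 and 8.21 in control females. Males had 10.38, 8.93 and 10.62 with over-expression against 10.30, 10.57 and 11.18 in the control. The over-expression females lay above all 9 females of the other genotypes, and the male groups overlapped. The rise in females was 1.68 ± 0.38 (3.21-fold, higher in 3 of 3 pairs, adjusted p 0.0381) and the difference in males -0.71 ± 0.38. The test of female minus male effect gave 2.39 ± 0.54 (unadjusted p 0.00023, adjusted p 0.092), so a difference between the sexes was not called. The female call was lost in 4 of 6 leave-one-out fits, at adjusted p 0.163 and 0.0736 without replicates 1 and 2 of the over-expression females and 0.205 and 0.141 without replicates 2 and 3 of the control females. The difference stayed between 1.42 and 1.92.

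In males the third call beside Cyp6g1 and Cyp28d2 was Cyp311a1, at -0.76 ± 0.19 (adjusted p 0.0468), but all its group means lay at the low end of the scale, 3.00 with over-expression and 3.77 in the control. Its call ended in 5 of 6 leave-one-out fits (adjusted p 0.052 to 0.236) and stayed only without replicate 2 of the control males. With the diet batch in the model the male count was 8 of 76 (1 higher and 7 lower), where 1.91% of all probe sets were called. The added falls were Cyp6a21 (-1.29, adjusted p 0.00545), Cyp4d20 (-0.99, 0.0344), Cyp6a2 (-0.93, 0.0388), Cyp4aa1 and Cyp6a8 (-0.62, 0.0411). Cyp6a2 and Cyp6a8 are clan 3 genes that drugs and insecticides induce in flies. Cyp6a21 measured 5.56, 5.21 and 5.61 in over-expression males against 6.57, 7.09 and 6.59 in control males. These groups did not overlap, and the diet-batch model called Cyp6a21 over both sexes as well (-0.73, adjusted p 0.0203).

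The signs of the over-expression differences split differently in the sexes. In females 50 of 76 members were higher and 26 lower, with a median of 0.13 against -0.04 over all probe sets. In males 26 were higher and 50 lower, with a median of -0.14 against 0.03. By member, 21 were higher in both sexes, 21 lower in both, 29 higher in females and lower in males, and 5 the reverse. None of the 76 was called in the test of female minus male effect, where 0.165% of all probe sets were, and 16 of 76 (21.1%) had an unadjusted p under 0.05 against 14.5% of all probe sets. By same-batch pair, females had 31 members higher and 45 lower in batch 1, 63 and 13 in batch 2, and 38 and 38 in batch 3. Males had 28 higher and 48 lower in batch 1, and 22 and 54 in batches 2 and 3. The female split was 41 higher and 35 lower, with a median of 0.03, without replicate 2 of the over-expression females, and the same without replicate 2 of the control females. In males it stayed between 24 higher with 52 lower and 30 higher with 46 lower with each array left out, a comparison chosen after seeing the data. In over-expression females the 12 ovary markers were at a median difference of -0.95, all 12 negative and none called, with a summed intensity of 7550 to 42800 against 34000 to 52100 in control females. Their median was -0.08 without replicate 2 of the over-expression females. The part of ovary tissue in the P450 differences was not tested.

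The split differed between clans. In over-expression males 28 of 37 clan 3, 16 of 27 clan 4 and 6 of 8 mitochondrial members were lower, at medians of -0.18, -0.04 and -0.27, while the 4 clan 2 members were all higher at a median of 0.13. In females 20 of 37 clan 3, 20 of 27 clan 4, 7 of 8 mitochondrial and 3 of 4 clan 2 members were higher, so clan 2 had mostly positive signs in both sexes. The Cyp6a subfamily had 10 of 13 members higher in females (median 0.37) and 9 of 13 lower in males (median -0.14), the 6 Cyp12 genes were 5 higher in females and 6 lower in males, and the 5 Cyp4d genes 4 higher in females and 5 lower in males. Cyp9 genes were lower in males in 5 of 5, led by Cyp9b2 at -0.82 ± 0.23 (adjusted p 0.101). Apart from the genes named above, none of these members was called, so these are counts of signs only.

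Of the 9 measured genes of a list known to respond to foreign compounds (Cyp6a2, Cyp6a8, Cyp12d1-d, Cyp6d5, Cyp6w1, Cyp6g1, Cyp6g2, Cyp28a5 and Cyp309a1), the sexes combined gave 2 higher and 7 lower, at a median of -0.24, and Cyp6g1 was the only call. The list was chosen with earlier results of these data known. In males 8 of 9 were lower, where 50 of 76 members and 44.8% of all probe sets were. The male median was -0.49, and Cyp6w1 (-0.57), Cyp6d5 (-0.49) and Cyp6g2 (-0.41, adjusted p 0.0936) were among the lower ones. In females 6 were higher and 3 lower, at 0.07, with Cyp28a5 at 0.78 ± 0.28 (adjusted p 0.185, and 0.0428 at 1.06 without replicate 3 of the over-expression females). Cyp309a1, the most variable member, measured 6.93, 8.15 and 5.33 in over-expression females against 6.64, 6.67 and 5.74 in control females, so the difference of 0.45 ± 0.51 lay within its own spread. Its neighbour Cyp309a2 had 6.68, 7.73 and 6.25 in over-expression females against 6.46, 6.06 and 6.01 in control females, and replicate 2 was the highest of the over-expression females for both genes. Its difference was 0.71 ± 0.26 (adjusted p 0.193), and without replicate 3 of the over-expression females 1.03 (0.03).

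A list for hormone turnover and development held 5 of the members, and P450s of that kind with other symbols are not in it. They were the ecdysone-inactivating Cyp18a1, the sensory bristle gene Cyp303a1, the cuticle gene Cyp301a1, Cyp6a13 and Cyp305a1. In the mean of both sexes they were 5 of 5 higher with over-expression, where 50.2% of all probe sets were. None was called in limma, and the median was 0.11. Some of these differences were small: Cyp303a1 differed by -0.07 in females and 0.13 in males, and Cyp301a1 by 0.10 and 0.07. Cyp6a13 stood highest at 0.42 ± 0.12, higher in 6 of 6 pairs with no overlap in either sex. Its adjusted p was 0.084, but 0.0365 with the diet batch in the model and 0.0483 without replicate 1 of the control females. It measured 7.88, 7.89 and 7.64 in over-expression females against 7.46, 6.92 and 7.27 in control females, and 7.51, 7.48 and 7.58 in over-expression males against 7.20, 7.12 and 7.47 in control males.

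Genes that serve the P450s were measured beside them. Of 5 electron donors 1 was called in the mean of both sexes, where 1.88% of all probe sets were. It was Cyt-b5, which encodes the cytochrome b5 that passes electrons to microsomal P450s. It measured 11.53, 11.33 and 11.42 in over-expression females and 11.23, 10.76 and 11.27 in over-expression males, against 11.67, 11.61 and 11.76 in control females and 11.64, 11.81 and 12.09 in control males. The groups did not overlap in either sex, and the difference was -0.51 ± 0.12 (adjusted p 0.0259). Of 7 genes of heme synthesis 1 was called, Pbgs, an early enzyme of the pathway, at -0.54 ± 0.11 (adjusted p 0.00842). The other electron donors and heme genes were not called, so no shared fall of these lists is shown. Among tissue markers, 3 of 6 oenocyte markers were called in over-expression males, where 1.17% of all probe sets were: FASN2 (-1.48, adjusted p 5.32e-05), FASN3 (-1.69, 0.000296) and CG18609 (-1.20, 0.0386) fell. The other 3 were at -0.22 (CG17821), -0.20 (eloF) and -0.01 (bond), not called. In over-expression females none of the 6 was called by limma and 1, FASN2, had an unadjusted p under 0.05, with 4 lower and 2 higher and a median of -0.31. The summed intensity of the 6 was 1450 to 1820 in over-expression males against 2680 to 2980 in control males. Oenocytes are the hydrocarbon-making cells under the cuticle. The 4 measured Malpighian tubule markers were lower in over-expression males (median -0.31) and higher in over-expression females (0.24) with none called, and the part of either tissue in the P450 differences was not tested.

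The labelled knockdown gave no P450 call. Of 76 members 0 were called in the mean of both sexes, in females or in males, where limma called 0.0586%, 0.0213% and 0.0266% of all probe sets. At an unadjusted p under 0.05 there were 4 in the mean of both sexes (5.26% of members against 3.31% of all probe sets), 8 in females (10.5% against 4.24%) and 2 in males (2.63% against 2.18%). Cyp6a2 had the smallest p. It measured 7.09, 7.34 and 7.87 in labelled knockdown females against 7.78, 8.89 and 9.20 in arm-GAL4 control females. Males had 7.39, 8.32 and 8.86 with the labelled knockdown against 8.59, 9.59 and 9.15 in the control. The groups overlapped in both sexes, and Cyp6a2 was lower in 6 of 6 same-batch pairs. The difference was -1.06 ± 0.26 (unadjusted p 0.000602, adjusted p 0.314), and with the diet batch in the model it was called at adjusted p 0.00522, the only member among the 0.0852% of probe sets called so.

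Cyp6a2 had its highest group mean in the arm-GAL4 control in each sex. Its group means were 8.06 in over-expression females, 7.69 in Act5C-GAL4 control females and 7.43 in labelled knockdown females, against 8.62 in arm-GAL4 control females. They were 7.23 in over-expression males, 8.16 in Act5C-GAL4 control males and 8.19 in labelled knockdown males, against 9.11 in arm-GAL4 control males. The Act5C-GAL4 control also lay below the arm-GAL4 control, by -0.94 ± 0.26 (adjusted p 0.123, 0.00365 with the diet batch in the model, and 0.0283 at -1.15 without replicate 1 of the arm-GAL4 control females). These comparisons share the arm-GAL4 control arrays. Cyp6a22, a neighbour of Cyp6a17 on chromosome arm 2R, differed in the labelled knockdown by 0.38 ± 0.11 (adjusted p 0.846), higher in 6 of 6 pairs with no overlap in either sex.

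In labelled knockdown females 62 of 76 members were lower and 14 higher, at a median of -0.20 against 0.00 over all probe sets, of which 49.5% were lower. All 9 measured genes of the foreign-compound list were among the lower ones (median -0.37), as were 31 of 37 clan 3 and 22 of 27 clan 4 members. The families Cyp12 (6 of 6), Cyp9 (5 of 5) and Cyp28 (4 of 4), and the subfamilies Cyp4d (5 of 5) and Cyp4ac (3 of 3), had every member lower. In males 30 were lower and 46 higher, at a median of 0.05, and that majority turned without replicate 2 or 3 of the labelled knockdown males (39 and 40 lower). The female split was 55 lower and 21 higher without replicate 2 of the labelled knockdown females, and 49 lower and 27 higher, at a median of -0.06, without replicate 3 of the arm-GAL4 control females, whose P450s lay 0.20 above their group mean at the median. In labelled knockdown females the ovary markers differed by 0.68 at the median (11 of 12 higher, none called, summed intensity 47800 to 58800 against 20300 to 47100 in control females). Without replicate 2 of the arm-GAL4 control females that median was 0.28, and the P450 split was 65 lower and 11 higher. The 4 Malpighian tubule markers differed by -0.35 at the median (4 of 4 lower, none called, 751 to 1240 against 930 to 1410). Their part was not tested. None of the 76 was called by limma for female minus male effect, where 0.032% of all probe sets were, and 4 (5.26%) had an unadjusted p under 0.05 against 2.73% of all probe sets.

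The 2 control genotypes, which carry different GAL4 drivers and no Hr96 transgene, differed in P450s by as many calls as over-expression did. Their genetic background may differ along with the driver. Driver and background cannot be told apart, here or across the series. In the mean of both sexes 4 of 76 members were called, 2 of them higher and 2 lower, where 0.868% of all probe sets were (0.426% higher and 0.442% lower), and all 4 are neighbours in a run of 9 P450 genes on chromosome arm 2R. In the RefSeq Release 6 gene table its order is Cyp6a22, Cyp6a17, Cyp6a23, Cyp6a19, Cyp6a9, Cyp6a20, Cyp6a21, Cyp6a8 and Cyp317a1. Act5C-GAL4 control flies had more Cyp6a17, known in flies for a role in temperature preference, and more Cyp6a20, known for a role in male aggression, and less Cyp6a23 and Cyp6a9. These genes are closely related copies, so a probe set may also have read a neighbour's transcript.

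Cyp6a23 measured 6.90, 6.57 and 6.32 in Act5C-GAL4 control females against 7.86, 7.89 and 8.20 in arm-GAL4 control females. Males had 6.82, 6.98 and 6.92 in the Act5C-GAL4 control against 7.87, 8.25 and 8.18 in the arm-GAL4 control. The difference was -1.29 ± 0.12 (2.44-fold lower, lower in 6 of 6 pairs, adjusted p 1.16e-06), called in females and in males as well, where 0.17% and 0.73% of all probe sets were, and the call in the mean held with each array left out in turn. Across the series the 12 arrays with the Act5C-GAL4 driver lay between 6.32 and 7.32 and the 12 with arm-GAL4 between 7.60 and 8.60. Cyp6a23 was the only member of the 76 whose arrays separated completely by driver, in over-expression, labelled knockdown and control flies alike, while 0.048% of all probe sets separated in this way.

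Cyp6a9 measured 5.96, 5.75 and 5.49 in Act5C-GAL4 control females against 6.42, 6.02 and 6.57 in arm-GAL4 control females, and 5.55, 5.15 and 5.62 in Act5C-GAL4 control males against 6.26, 6.37 and 6.85 in arm-GAL4 control males. The groups did not overlap in either sex, and the difference was -0.83 ± 0.13 (1.78-fold lower, adjusted p 0.00157), a call that held with each array left out. In males alone it was called at -1.06 (adjusted p 0.00478). Cyp6a17 measured 8.18, 7.49 and 8.24 in Act5C-GAL4 control females and 7.99, 7.80 and 8.55 in Act5C-GAL4 control males, against 7.03, 6.83 and 7.47 in arm-GAL4 control females and 6.79, 7.05 and 7.73 in arm-GAL4 control males. Again neither sex overlapped. Its difference was 0.89 ± 0.21 (1.86-fold higher, 6 of 6 pairs, adjusted p 0.0392). Cyp6a20 was higher by 0.81 ± 0.18 (1.75-fold, 6 of 6 pairs, adjusted p 0.0342), with overlap in females only. Both rises lost their call in most leave-one-out fits. Cyp6a17 lost it in 8 of 12 (adjusted p 0.0694 to 0.129) and kept it only without replicate 2 of the Act5C-GAL4 control females or males or replicate 3 of the arm-GAL4 control females or males. Cyp6a20 lost it in 9 of 12 (0.0535 to 0.12) and kept it only without replicate 2 of the Act5C-GAL4 control females or replicate 3 of the arm-GAL4 control females or males.

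**Figure D4:**
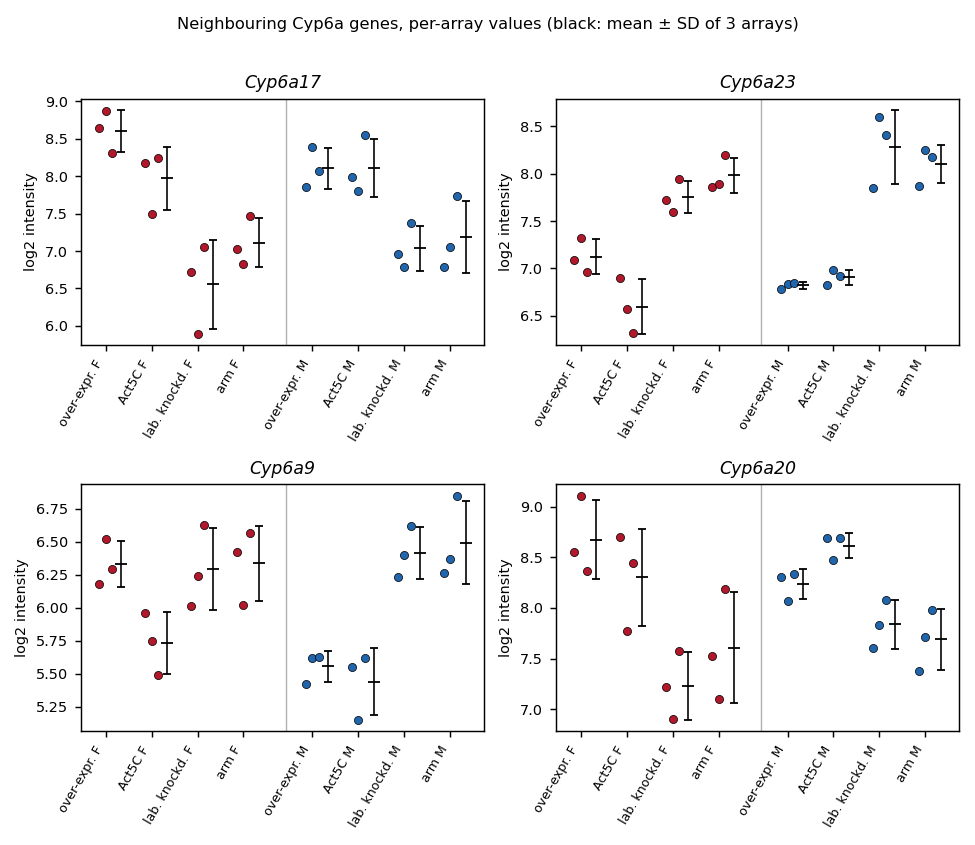
Log2 intensity of 4 neighbouring Cyp6a genes on each array (points; red females, blue males; black bars mean ± SD of 3 arrays). Cyp6a17 and Cyp6a20 lie mostly higher, and Cyp6a23 lower, with the Act5C-GAL4 driver (over-expression and Act5C groups) than with the arm-GAL4 driver, and Cyp6a9 in over-expression females lies with the arm-GAL4 groups.

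The other genes of the run were not called between the same controls: Cyp6a21 differed by -0.55, Cyp6a22 by 0.27, Cyp6a19 by -0.25, Cyp6a8 by -0.20 and Cyp317a1 by 0.07. Within the Act5C-GAL4 driver, Cyp6a9 was 0.60 ± 0.19 higher in over-expression females than in their control (adjusted p 0.143), with no overlap, and Cyp6a23 0.53 ± 0.17 higher (adjusted p 0.153). The over-expression comparison and the comparison of controls share the Act5C-GAL4 control arrays. Outside the run, the smallest adjusted p values were those of Cyp9c1 (-0.47 ± 0.12, 0.0696) and Cyp6a18 (0.48 ± 0.12, 0.0738). With the diet batch in the model 7 members were called (2 higher and 5 lower), where 1.29% of all probe sets were, and Cyp6a2, Cyp9h1 (-0.46, adjusted p 0.0379) and Cyp9c1 (adjusted p 0.0492) were the added ones. Leaving out 1 array also called Cyp9c1 (-0.55, adjusted p 0.0383, without replicate 1 of the arm-GAL4 control males) and Cyp9h1 (-0.57, adjusted p 0.0283, without replicate 2 of the arm-GAL4 control females).

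Sex gave more P450 calls than any comparison of genotypes. Among the control genotypes 30 of 76 members were called between females and males (39.5%, where 63.0% of all probe sets were), 15 higher and 15 lower in females, where 44.0% and 19.0% of all probe sets were. The median over the members was -0.05, against 0.20 over all probe sets. Scaling every array to a common median moves every such difference by 0.20 and gives 43 calls, 29 higher and 14 lower in females, so the directions below are relative to the array as deposited. None of the called members changed sign under either scaling tried.

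The gene with the largest female excess was Cyp6a19, of the 2R run. In females it measured 9.11, 10.17 and 9.69 in the Act5C-GAL4 control and 10.18, 10.47 and 9.26 in the arm-GAL4 control. Males of these genotypes had 4.63, 5.08 and 5.18 in the Act5C-GAL4 control and 4.72, 5.82 and 4.93 in the arm-GAL4 control. The sexes were far apart in every genotype, at 4.75 ± 0.26 among the controls (27.0-fold, adjusted p 1.45e-13), 4.43 in over-expression flies and 5.54 in labelled knockdown flies. Cyp6v1 (1.84 ± 0.11) and Cyp6a22 (1.76 ± 0.11), both clan 3, followed. Cyp18a1, the enzyme that inactivates the moulting hormone ecdysone, was 1.13 ± 0.15 higher in females, and its other probe set gave 1.47. Cyp6u1 was higher by 0.93 ± 0.08 and Cyp4d1 by 0.83 ± 0.18, and the other 9 members called higher in females differed by 0.24 to 0.47.

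The gene with the largest male excess was Cyp312a1, a clan 4 member. In females it measured 5.02, 4.78 and 4.77 in the Act5C-GAL4 control and 5.11, 4.85 and 5.19 in the arm-GAL4 control. Males had 9.87, 9.94 and 9.87 in the Act5C-GAL4 control and 9.98, 9.51 and 10.00 in the arm-GAL4 control. The difference of -4.91 ± 0.10 (30.0-fold lower in females, adjusted p 3.04e-21) was nearly the same in over-expression flies (-4.83) and labelled knockdown flies (-4.83). Cyp313a1 (-2.42 ± 0.27), Cyp309a2 (-1.27 ± 0.18), Cyp6a18 (-0.98 ± 0.12), Cyp4ac1 (-0.88 ± 0.24), Cyp28c1 (-0.85 ± 0.14), Cyp4e1 (-0.80 ± 0.18) and Cyp6g1 (-0.76 ± 0.16) were also lower in females, as were Cyp4d2 and its neighbour Cyp4d14 (-0.73 each). The other 5 called, Cyp310a1, Cyp28d2, Cyp305a1, Cyp49a1 and Cyp12e1, differed by -0.67 to -0.30.

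By subfamily, both directions occurred side by side. The 13 Cyp6a genes held Cyp6a19, Cyp6a22 and Cyp6a16 on the female side and Cyp6a18 on the male side among the called, with a median of -0.05. The 5 Cyp4d genes held Cyp4d1 on the female side and Cyp4d2 and Cyp4d14 on the male side. Among 5 Cyp313a genes Cyp313a1 was lower in females and Cyp313a2 (0.30) and Cyp313a3 (0.42) higher, these at the low end of the scale. All 4 clan 2 members were called, where 63.0% of all probe sets were. Cyp18a1, Cyp303a1 (0.40) and Cyp304a1 (0.37) were higher and Cyp305a1 (-0.61) lower in females. Cyp303a1 lay at the low end of the scale in males, at 4.38 in the Act5C-GAL4 control and 4.36 in the arm-GAL4 control. The mitochondrial clan had 7 of 8 members lower in females, with Cyp49a1 (-0.53) and Cyp12e1 (-0.30) called. Among these smaller differences, Cyp12e1 lost its call without replicate 2 of the Act5C-GAL4 control females (adjusted p 0.0615). Cyp313a2 lost it in 7 of 12 leave-one-out fits (0.0514 to 0.102) and kept it only without replicate 2 of the Act5C-GAL4 control males, replicates 2 or 3 of the Act5C-GAL4 control females, replicate 3 of the arm-GAL4 control females or replicate 1 of the arm-GAL4 control males. Cyp6a16 lost it in 8 of 12 (0.0556 to 0.184) and kept it only without replicates 1 or 2 of the Act5C-GAL4 control males, replicate 2 of the arm-GAL4 control females or replicate 1 of the arm-GAL4 control males. Its difference of 0.24 was 0.14 without replicate 3 of the Act5C-GAL4 control males.

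Cyp18a1 illustrates the female side of clan 2. It measured 8.17, 7.72 and 8.04 in Act5C-GAL4 control females against 7.12, 7.11 and 6.64 in Act5C-GAL4 control males. The arm-GAL4 control gave 8.20, 7.37 and 8.27 in females against 6.56, 6.80 and 6.75 in males. The sexes did not overlap in either genotype. Of the foreign-compound list 1 of 9 genes was called among the controls, Cyp6g1, where 63.0% of all probe sets were, and 7 of 9 were lower in females at a median of -0.21.

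**Figure D5:**
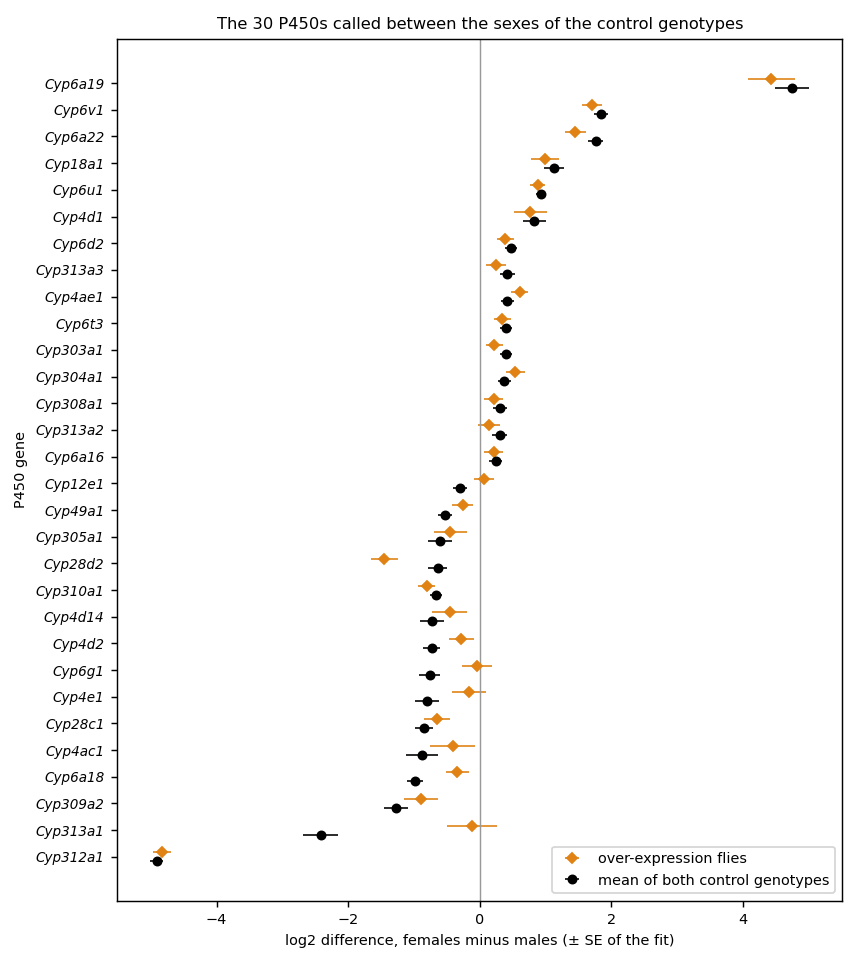
Log2 difference of females minus males (x axis, ± SE of the fit) for the 30 P450s called among the control genotypes, in over-expression flies (orange diamonds) and in the mean of both control genotypes (black circles). Cyp6a19 and Cyp312a1 keep differences of over 4 in both, while Cyp313a1 and Cyp6g1 lie near 0 in over-expression flies.

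Sex differences were also read within each genotype, where 27 of 76 were called in over-expression flies, 22 higher and 5 lower in females, against 46.4% of all probe sets (32.4% higher and 14.1% lower). In the Act5C-GAL4 control 23 were called, 11 higher and 12 lower, against 49.8% of all probe sets (34.3% and 15.5%). In labelled knockdown flies 37 were called, 11 higher and 26 lower, against 48.4% (31.2% and 17.3%). The arm-GAL4 control had 22 calls, 11 in each direction, against 49.5% (33.1% and 16.4%). Within the foreign-compound list 2 genes were called higher in females of the over-expression flies, where the median was 0.56 and 7 of 9 were positive. In labelled knockdown flies 4 were called lower in females (Cyp6g1, Cyp6g2, Cyp6w1 and Cyp6d5), at a median of -0.58 with 9 of 9 negative. Cyp313a1 differed between females and males by -0.12 ± 0.38 in over-expression flies (adjusted p 0.838), against -2.51 ± 0.38 in the Act5C-GAL4 control, and by -2.52 in labelled knockdown flies against -2.33 in the arm-GAL4 control. Cyp6g1 differed by -0.04 ± 0.23 in over-expression flies against -0.69 ± 0.23 in the Act5C-GAL4 control, and by -1.37 ± 0.23 in labelled knockdown flies against -0.83 ± 0.23 in the arm-GAL4 control. These differences of differences are the female minus male tests given above, and none of the 76 was called in them.

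In the family as a whole, 40 members lie in 14 runs of neighbouring P450 genes, with at most 1 other protein-coding gene between them in the Release 6 table. Neighbours did not always move together. In over-expression males Cyp28d2 was 0.98 higher while its neighbour Cyp28d1 was -0.45 (not called). Other runs shared a direction in these males. Cyp6g1 at -1.44 stood beside Cyp6g2 at -0.41 and Cyp6t3 at -0.17, lower as well but by less and not called. Cyp9b1 (-0.58) and Cyp9b2 (-0.82) were both lower, neither called. Among the controls Cyp6a19 was strongly female-biased while its neighbours Cyp6a23 (-0.21) and Cyp6a9 (0.07) were not called between the sexes.

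Of the 76 members, 2 had a second probe set. The second of Cyp18a1 had the same sign in all 4 main comparisons, and the second of Cyp12e1 differed in sign in the labelled knockdown (0.07, against -0.11 for the brighter one), where neither was called. The 2 cyclophilins drawn in by the symbol pattern were called only between the sexes: among the controls Cyp1 was 1.41 ± 0.12 higher and Cyp40 was lower in females at -0.65 ± 0.09. With over-expression Cyp1 differed by -0.40 ± 0.12 in the mean of both sexes (adjusted p 0.112).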

How the data were processed

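Biotin-labelled cRNA from the total RNA of whole flies was read on Affymetrix arrays, as the labels state. The authors summarised probe sets with RMA (background correction, normalization between arrays, probe summary), per the submitters' processing notes, which give no version here. What they deposited is intensity, not logged, running from 5.2 to 20754. The tests had been planned for log2 values, so log2 was computed first, with no pseudocount. Array medians ran from 52.9 to 65.5, and no further scaling was applied. The number of arrays limits the precision.

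Of 18952 probe sets 183 controls were left out, and limma 3.58.1 (lmFit and eBayes, under R 4.3.3) was fitted to the other 18769 on all 24 arrays with 1 mean per group (16 residual and 5.19 prior degrees of freedom), Benjamini-Hochberg adjusted within each comparison, at 0.05. Gene names came from the platform annotation, and all 78 members were matched to the RefSeq Release 6 gene table with 0 changed symbols. Members and lists were chosen with earlier results of these data known. Named members were those called in a comparison (at most the 12 largest rises and 12 largest falls; where fewer than 4 were called, those with the smallest p), the 2 member lists, called partner genes and tissue markers; others were chosen after their values were seen.

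The labels tie each replicate number to a diet batch, which pairs arrays across groups. Same-numbered arrays deviated from their group means together in 9 of 12 pairs (correlation over 0.1), with correlations of -0.07 to 0.57. The exceptions were the pairs of over-expression females with their control females, at -0.03, -0.07 and 0.07. For that comparison these correlations showed no shared batch deviation, but they do not exclude one in part of the genes. On the ovary markers replicates 1, 2 and 3 lay at 1.00, -2.13 and 0.92 from the group mean in over-expression females. In their control females they lay at 0.33, -0.43 and 0.11. The batch was left out of the tests reported first. Alternatives were the batch as a replicate block, the compared arrays alone, a mean log2 of at least 5, median scaling, quantile normalization, eBayes with trend and robust, the mean of a gene's probe sets, and leaving out each array. Simulated data with known changes covered only the over-expression comparison in the mean of both sexes, over 18769 probe sets. There 94 of 100 changes of size 1 (log2) and 100 of 100 of size 2 were recovered, with 3 false calls. Single-sex comparisons rest on fewer arrays, and P450s varied more than most probe sets, so this rate does not carry over to them. Python 3.11.15, pandas 2.3.3, numpy 2.4.6 and matplotlib 3.10.9 made tables and plots.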

Additional observations from a re-analysis of the deposited data

Results flagged for a closer look

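Cyp4s3, a clan 4 gene, had differences of opposite sign in the sexes with over-expression, every array of each sex lying on its own side of the control. It measured 6.08, 6.21 and 6.06 in over-expression females against 6.54, 6.42 and 6.80 in control females, and 6.63, 6.49 and 6.61 in over-expression males against 6.36, 6.23 and 6.35 in control males. The effect was -0.47 in females (adjusted p 0.243) and 0.26 in males (0.587), neither called by limma. The difference between the sexes was -0.73 with an adjusted p of 0.275, so that test was not passed either.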

How the results depend on the processing

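Over all 76 P450s and 9 comparisons, 11082 differences were recomputed: 0 reversed in sign where called, 73 lost a call (21 of them between the sexes) and 77 gained one (46 of them between the sexes). Counts of called P450s moved by over 1.5 times in these cases. With the diet batch as a replicate block, over-expression gave 2 calls in females and 8 in males, the labelled knockdown 1 in the mean of both sexes, and the Act5C-GAL4 control against the arm-GAL4 control 7; the block changed no other count by that much. With the compared arrays alone the female over-expression count was 0 and that between controls 2. With trend and robust the female over-expression count was 0, and with the mean of a gene's probe sets the male count was 5. Leaving out 1 array at a time gave 2 to 5 calls for over-expression in the mean of both sexes (2 without replicate 2 or 3 of the over-expression males, control females or control males). It gave 0 to 3 in females (0 without replicate 1 of the over-expression females or 3 of the control females, 3 without replicate 3 of the over-expression females) and 1 to 3 in males (1 without replicate 3 of the control males). Between controls it gave 2 to 4 (2 without replicate 1 or 3 of the Act5C-GAL4 control females or males or replicate 2 of the arm-GAL4 control males), 28 to 34 between the sexes, and 0 for the labelled knockdown and for the female minus male effect of over-expression. Scaling to a common median gave 43 calls between the sexes (29 higher and 14 lower in females) and quantile normalization 37. With the compared arrays alone, adjusted p values were 0.153 for Cyp4e3 and 0.103 for Cyp28d2 with over-expression. The cause of these shifts was not tested. Signals near background limit what can be said of Cyp311a1, Cyp313a5 and Cyp316a1.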
